A study of Caenorhabditis elegans with 2 samples.

Results

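The nuclear hormone receptor genes of Caenorhabditis elegans were taken by name: protein-coding genes whose symbol begins with nhr-, plus daf-12, odr-7, unc-55, sex-1 and fax-1. In the WBcel235 annotation 274 of 19973 protein-coding genes on the 6 nuclear chromosomes met this rule. The rule uses names only, but the family was chosen with earlier results of these data known. The study mapped LIN-40 by chromatin immunoprecipitation sequencing (ChIP-seq) in whole hermaphrodite young adults of strain OP485, taken 57.25 hours after release from starved first-stage larvae. All worms carried a GFP-FLAG tag at the C terminus of LIN-40, the antibody recognised GFP, and the 2 samples are biological replicates 3 and 4 of a single group. Untagged worms were not analysed here, so the lists describe where tagged LIN-40 was recovered from a mixture of all tissues and allow no comparison between conditions.

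Nuclear hormone receptors are transcription factors with a zinc-finger DNA-binding domain and, in most cases, a domain that can bind a small lipophilic ligand. Bound and unbound receptors recruit coactivators and corepressors, among them histone-modifying complexes. LIN-40 is a subunit of one such complex, the nucleosome remodelling and deacetylase complex (NuRD). Nematodes have many more of these receptors than flies or mammals, and most of the extra ones derive from an ancestor related to the vertebrate receptor HNF4. A small set has clear relatives in flies and vertebrates, and these act in moulting, dauer formation, sex determination and neuronal identity.

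For each gene, the regions considered were those whose summit lay between 1000 bp upstream and 200 bp downstream of any annotated transcript start, the promoter window. The main list holds the 3066 regions on build ce11 that passed the authors' irreproducible discovery rate (IDR) threshold. Its signal values, set by the authors' caller on a scale not given in the sources used here, ran from 99.97 to 2816. They rank and describe regions within a list. Read depth is unknown because the lists hold no read counts.

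LIN-40 was recovered at nuclear hormone receptor genes about as often as at protein-coding genes in general. An IDR summit lay in the window of 27 of the 274 receptor genes (9.85%, exact 95% interval 6.59 to 14%), beside 9.91% of all 19973 protein-coding genes. The interval covers counting error only. The 27 genes carried 33 distinct peaks: 23 genes had 1 summit, nhr-34 and nhr-68 had 2 each, and nhr-40 and nhr-49 had 3 each. No peak lay in the windows of 2 receptor genes. The peaks were of ordinary strength, with a median signal of 161 (range 104 to 549), against 172 for the 1675 IDR peaks in any protein-coding window and 164 for all IDR peaks. The strongest ranked 145 among the 3066.

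The peak of highest signal lay at nhr-47, at V 5504986 to 5505477. The pooled signal there was 549, with 262 in replicate 3 and 289 in replicate 4. The summit stood at -12 bp from the start. The same summit lay at -384 bp from dnj-19, a J-domain chaperone gene on the opposite strand, so it cannot be given to nhr-47 alone. The next, at nhr-68, had a signal of 530.1, with 225 in replicate 3 and 309 in replicate 4 (V 11572760 to 11573342). NHR-68 works with NHR-10 to switch on an alternative route of propionate breakdown. Its summit stood at -380 bp, closer to the divergent gene H12C20.7 (-70 bp). A weaker summit of signal 127 lay within the same interval at -179 bp from nhr-68. The third, at nhr-142, had a signal of 373, with 183 in replicate 3 and 190.1 in replicate 4 (V 5790827 to 5791261). It too was shared, at -521 bp from nhr-142 and -156 bp from F44E7.9. Each of the 3 strongest peaks of the family therefore stood between a receptor gene and a divergent neighbour.

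Below these, the strongest peaks lay in the window of a single gene. On X, nhr-1 had a signal of 349.6 at -295 bp (168 in replicate 3, 179 in replicate 4; X 17513503 to 17513959). On the same chromosome nhr-35 had 284 at -345 bp (139 and 147, in the same order; X 4532143 to 4532562). A summit of nhr-48, a relative of daf-12, had 263 at -617 bp (106 and 161; X 15707394 to 15707866). These X-linked summits all lay in intergenic sequence. On V, nhr-57, which is induced by hypoxia through HIF-1, had 258 at -184 bp (109 and 149; V 4131489 to 4131865). The gene nhr-135 had 237 at -208 bp (134 and 107; V 7093816 to 7094144), and it is the only one of the 10 genes with the strongest peaks at which replicate 3 exceeded replicate 4. On II, nhr-119 had 242 at -401 bp (112 and 136; II 2800831 to 2801174).

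The sequence at several of these summits shows what the peaks hold, with 50 bp on either side of the summit, read 5′ to 3′ on the strand of the receptor gene from the RefSeq copy of WBcel235 (ce11). Capitals mark matches, on either strand, to the purine repeat GAGAGA, to CTGCGTCT (a word common in worm core promoters), to the E-box CACGTG and to TGATAA (bound by GATA factors). In nhr-47 and nhr-142 they mark GCGCCAGC and ACGCGTCA, words picked after these sequences were seen. In nhr-119 the core promoter word and the purine repeat overlap. Every sequence shown holds a marked word, so the set does not represent all receptor summits. The summits of nhr-35 (signal 284) and nhr-57 (258) held none of these words within 50 bp and are not shown. Several other receptor summits held none either. The summits shown for nhr-34 (140.4) and nhr-87 (118) were weaker than those of nhr-35 and nhr-57.
nhr-47, chrV:5505191-5505291, plus strand: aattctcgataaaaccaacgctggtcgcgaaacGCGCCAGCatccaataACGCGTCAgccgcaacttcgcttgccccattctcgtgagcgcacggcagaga
nhr-142, chrV:5791024-5791124, minus strand: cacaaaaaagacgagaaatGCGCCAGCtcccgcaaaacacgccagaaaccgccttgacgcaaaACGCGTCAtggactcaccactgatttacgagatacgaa
nhr-68, chrV:11573010-11573110, plus strand: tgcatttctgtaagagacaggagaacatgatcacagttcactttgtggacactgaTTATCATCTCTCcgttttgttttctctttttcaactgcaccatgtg
nhr-1, chrX:17513718-17513818, plus strand: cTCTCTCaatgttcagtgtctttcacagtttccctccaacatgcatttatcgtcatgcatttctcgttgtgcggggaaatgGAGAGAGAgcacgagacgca
nhr-119, chrII:2800951-2801051, minus strand: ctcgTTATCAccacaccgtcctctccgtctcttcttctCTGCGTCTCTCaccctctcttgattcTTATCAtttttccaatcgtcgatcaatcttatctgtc
nhr-135, chrV:7093928-7094028, minus strand: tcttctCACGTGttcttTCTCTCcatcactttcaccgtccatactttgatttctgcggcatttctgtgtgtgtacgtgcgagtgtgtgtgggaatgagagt
nhr-34 (summit at -979 bp), chrIV:9670124-9670224, minus strand: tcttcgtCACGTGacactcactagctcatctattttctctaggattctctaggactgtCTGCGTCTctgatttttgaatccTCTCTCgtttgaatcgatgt
nhr-87, chrIV:1623909-1624009, plus strand: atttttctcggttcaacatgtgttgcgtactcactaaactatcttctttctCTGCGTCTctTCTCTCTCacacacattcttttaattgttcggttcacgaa

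The purine repeat GAGAGA was the most frequent of the words at receptor summits. Within 100 bp of the summit it was found at 20 of the 33 receptor peaks (60.6%), against 37.7% of promoter peaks and 41.3% of all IDR peaks. The E-box was found at 7 (21.2%, against 8.48% and 10.3%) and the TGATAA site at 9 (27.3%, against 15.6% and 17.9%). The core promoter word was found at 6 (18.2%, against 13.3% of either set), and AGGTCA, to which many nuclear receptors bind, at 1 (3.03%, against 5.49% and 5.77%). That 1 peak lay at nhr-273. Within 50 bp AGGTCA was found at the same 1 peak (3.03%, against 2.75% and 2.9%). Within 200 bp it was found at 5 receptor peaks (15.2%, against 9.55% and 10.2%). Counts this small set no order. None of these differences was tested, and the 33 peaks come from 27 genes, some of them with several peaks each. A promoter window of 1201 bp covers 1 start, so it need not hold a summit that lies at another start of the gene. In whole windows of this size, GAGAGA was present for 81.5% of the 27 receptor genes with an IDR summit, 50.2% of the 247 without one and 50.9% of all protein-coding genes. The E-box was present for 33.3%, 17.4% and 18.4% of the same sets. For CTGCGTCT the shares were 14.8%, 17% and 8.63%, for TGATAA 74.1%, 67.2% and 72%, and for AGGTCA 25.9%, 26.7% and 26.7%. Median G and C content at the summits was 42.3% at the receptor peaks and 42.3% at all promoter peaks.

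**Figure D1:**
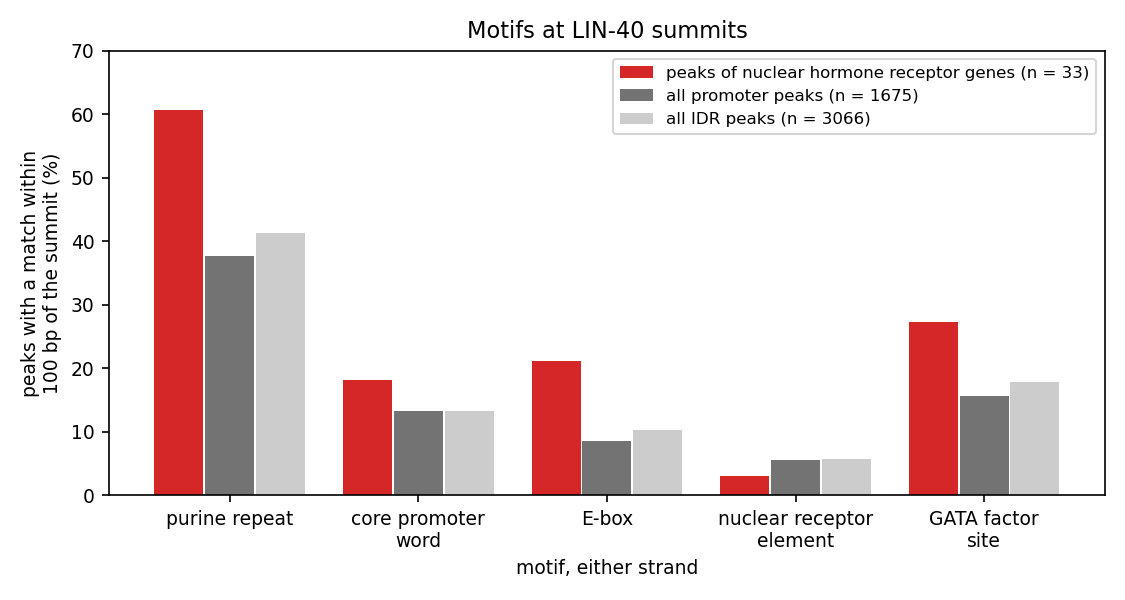
Share of peaks (y axis, percent) with a match to each motif (x axis, either strand) within 100 bp of the summit, for the 33 peaks at nuclear hormone receptor genes, the 1675 peaks in any protein-coding promoter window and all 3066 IDR peaks. The purine repeat stood at 60.6% of receptor peaks and 37.7% of promoter peaks. For the nuclear receptor element AGGTCA the shares were 3.03% (1 peak) and 5.49%, and with 200 bp flanks the receptor share was the higher.

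Of 11 receptor genes of lipid and nutrient metabolism, 4 had an IDR summit (36.4%, exact 95% interval 10.9 to 69.2%), beside 9.91% of all protein-coding genes. This list was chosen with earlier results known and its share is a description. The gene nhr-49, an HNF4-related regulator of fatty acid desaturation, fat breakdown and the fasting response, had 3 summits. Those at -346 and -143 bp lay upstream of the same, outermost start, and the other upstream of an internal start. Their signals were 278 at -346 bp (109 in replicate 3, 172 in replicate 4; I 9869126 to 9869490), 171 at -156 bp from an internal start (74.1 and 92.9) and 106 at -143 bp (30.3 and 69.5). The weakest of these differed most between the replicates. The nhr-66 summit had a signal of 146 (64.3 and 82.3) and lay at -131 bp from an internal start, in the 5′ UTR. NHR-66 is a partner of NHR-49. The gene nhr-69, which acts with the SMAD protein DAF-8 in insulin signalling, had 110.4 at -796 bp (46.9 and 59.2). With nhr-68, described above, these are the 4.

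The other 7 metabolic genes had no IDR summit, although 4 of them had a weaker region. In the pooled list nhr-62, needed for the longevity of dietary restriction, reached 94.1 (55.9 in replicate 3, 39.2 in replicate 4). That region lay at -952 bp from an internal start. The fat regulator nhr-64 reached 76.4 (35.8 and 42.5) and nhr-114, which links diet to the germline, reached 72.6 (36.9 and 44.6). The desaturase regulator nhr-80, another partner of NHR-49, reached 55.2 (15.3 and 45.2), with replicate 4 close to 3 times replicate 3. No pooled region lay in the windows of nhr-10, nhr-13 or nhr-76. Among the partners of NHR-49, nhr-66 thus stood above the threshold, and nhr-80 and nhr-13 did not.

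Of the 15 receptors with clear relatives outside nematodes, 2 had an IDR summit in the window (13.3%, exact 95% interval 1.66 to 40.5%, beside 9.91% of all protein-coding genes), and of the 259 other receptor genes 25 had one (9.65%). The 2 were nhr-48, described above, and nhr-41, related to the insect receptor DHR78. The nhr-41 summit had a signal of 156 (78 in replicate 3, 77.7 in replicate 4) and lay at 199 bp downstream of an internal start, 1 bp inside the window. The replicate 4 value comes from the strongest overlapping region, and the region of replicate 4 nearest to the summit, 87 bp away, had 53.7. The nhr-41 summit stood 9 bp upstream of a tRNA gene on the other strand, Y104H12A.t1. The heterochronic gene nhr-85, a Rev-erb relative, fell just short of the threshold, with 95.3 at -934 bp from an internal start (43.6 and 54.4). The dauer and steroid receptor gene daf-12 had 40 at -79 bp from an internal start (12.5 and 31.3). The gene nhr-6, which acts in spermatheca formation, had 16.9 (no region in replicate 3, 10.2 in replicate 4). At nhr-8, a relative of daf-12 in cholesterol balance and detoxification, the pooled region had 22 at -896 bp. The strongest overlapping sample regions had 41.8 and 78.9, which need not be specific to that summit. With a window of 2000 bp upstream, nhr-8 had an IDR summit. No region of the pooled list lay in the windows of the other 9. These are the moulting regulators nhr-23 and nhr-25, nhr-91, the tailless relative nhr-67, fax-1, nhr-111, nhr-239, unc-55 and the X-signal gene sex-1.

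The lists by role are too short to set apart from the 9.91% of all protein-coding genes with an IDR summit. Of 6 genes of moulting and developmental timing, nhr-41 alone had one (16.7%, exact 95% interval 0.421 to 64.1%, beside 9.91%), and nhr-85 and daf-12 had weaker regions. Of 5 genes of neuronal identity none had one, which allows a share of up to 52.2% by the exact interval, beside 9.91%. Among them nhr-6 alone had a pooled region; odr-7, which specifies AWA olfactory neurons, unc-55, fax-1 and nhr-67 had none. Whole worms dilute regions present in few cells, and recovery in a few neurons cannot be told apart from its absence here. Of 6 genes of stress, detoxification and immunity, nhr-57 had an IDR summit (16.7%, 0.421 to 64.1%, beside 9.91%). Of the rest, nhr-14, which acts in iron uptake, reached 58 (30.6 and 32.5), nhr-45 56 (26.1 and 28.5) and the pathogen sensor nhr-86 42.9 (16.7 and 23.6). Besides nhr-8, the remaining stress gene, nhr-176, which controls a cytochrome P450 of drug metabolism, had no pooled region.

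Most of the remaining genes with a summit are little studied. In order of signal, nhr-40, a gene of muscle development, had a summit of 198 at -944 bp (101 in replicate 3, 97.4 in replicate 4; shared at -980 bp with T03G6.7) and others of 183 and 104. The summit of nhr-105 had 185 (70.2 in replicate 3, 117 in replicate 4), nhr-255 178 (89.6 and 87.3), and nhr-34 had 172 at 99 bp (84.996 and 87.3) and 140.4 at -979 bp (75.5 and 65.3). Both nhr-34 distances are from internal starts. Next came nhr-17 with 161 (67.3 and 94.9), nhr-32 with 159 (87.3 and 66.1), nhr-104 with 153 (67.1 and 90.5), nhr-178 with 145 (69.04 and 74.9) and nhr-3 with 135. Among these genes replicate 3 was the higher sample at nhr-32, nhr-255, the -944 bp summit of nhr-40 and the weaker nhr-34 summit. The weakest were nhr-237 with 120.2 (59.9 and 58.4), nhr-131 with 118, nhr-87 with 118 (46.9 and 70.1), nhr-31 with 114.02 (67.4 and 43.7) and nhr-273 with 107 (55.9 and 56.2). NHR-31 shapes the excretory canal and controls genes of the vacuolar ATPase. The genes nhr-178 and nhr-237, both on the left arm of V, each had a peak of their own, at V 1607999 to 1608147 and V 1627226 to 1627689.

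The nhr-255 summit, like that of nhr-41, stood at a tRNA gene. It lay 7 bp upstream of ZK678.t1, on the same strand as nhr-255, and at -567 bp from the nhr-255 start. Of the 33 receptor peaks these 2 lay within 300 bp of the start of a tRNA, snoRNA, snRNA, microRNA or rRNA gene, against 11% of all IDR peaks. The sequences below show both, on the strand of the receptor gene, with the bases of the tRNA gene in capitals and the summit at the middle base.
nhr-255, chrX:15741993-15742093, plus strand: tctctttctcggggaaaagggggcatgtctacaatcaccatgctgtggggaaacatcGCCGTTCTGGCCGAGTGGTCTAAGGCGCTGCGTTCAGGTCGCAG
nhr-41, chrIV:1388246-1388346, plus strand: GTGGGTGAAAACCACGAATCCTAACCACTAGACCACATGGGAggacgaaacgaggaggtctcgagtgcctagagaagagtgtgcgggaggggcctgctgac

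The replicates agreed within the spread seen over the whole list, with exceptions among the weak peaks. A region of both samples overlapped 32 of the 33 receptor peaks. Over these, replicate 4 was higher at 24, the median ratio of replicate 4 to replicate 3 was 1.24 (1.15 over all IDR peaks), and the SD of the log2 ratio was 0.39, the same as over all IDR peaks. Across peaks, Spearman's rho was 0.81 and Pearson's r on the log2 scale 0.86; the peaks share both libraries and their depth, and the list was chosen from the pool of these samples. The peak without a partner was that of nhr-131, with 54.3 in replicate 3 and no overlapping region in replicate 4. At nhr-3, replicate 3 had 46.7 and replicate 4 had 93.1. At the 10 genes with the strongest peaks the pooled value was near the sum of the sample values. At the weaker nhr-68 summit, the strongest overlapping region of each sample is that of the neighbouring summit. At the nhr-40 summit at -266 bp this holds for replicate 4, while in replicate 3 the same region is nearest to both neighbouring summits. These values are therefore not specific to the weaker summit. At nhr-41 the replicate 4 value is likewise not that of the region nearest to the summit.

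**Figure D2:**
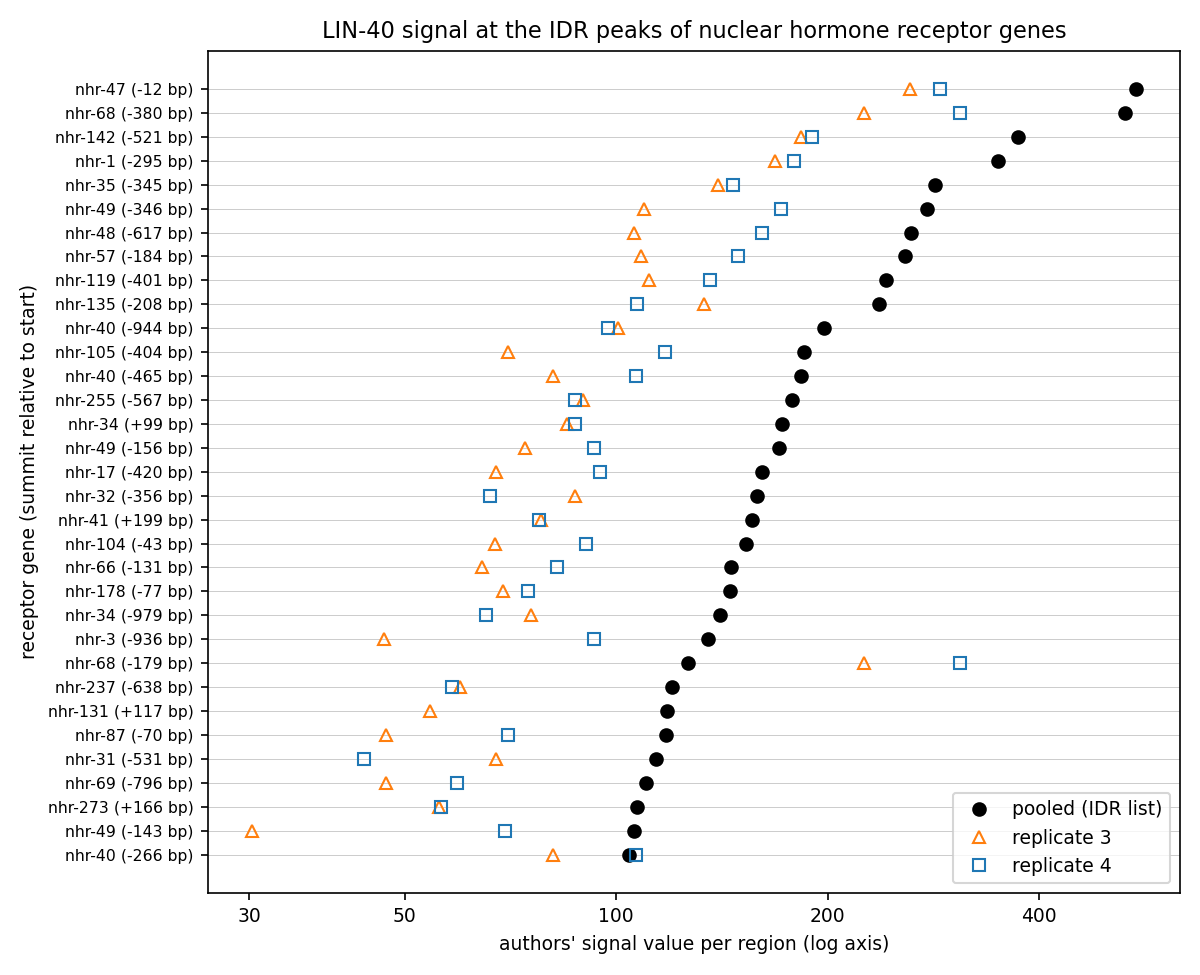
Signal (x axis, log scale, the authors' values) of each of the 33 IDR peaks at nuclear hormone receptor genes (y axis, in order of pooled signal, with the summit's distance to the start) in the pooled list and in the strongest overlapping region of replicates 3 and 4. Signals ran from 104 to 549, replicate 4 exceeded replicate 3 at 24 of 32 peaks, and nhr-131 had no region in replicate 4. At the nhr-68 summit at -179 bp both sample values are those of the stronger neighbour, and at the nhr-40 summit at -266 bp the replicate 4 value is. In replicate 3 a single region is nearest to both the -465 and the -266 bp summit of nhr-40. At nhr-41 the replicate 4 value is not that of the nearest region.

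Each sample's own list gave nearly the same number of receptor genes. Among the 3066 regions of highest signal in replicate 3, a summit lay in the window of 28 receptor genes (10.2%, beside 9.98% of all protein-coding genes). In replicate 4 the count was 25 (9.12%, beside 9.9%). Of the 27 genes of the IDR list, 24 were found from replicate 3, 23 from replicate 4 and 20 from both. A further pair, nhr-256 and nhr-97, were found from both samples but not in the IDR list; both were singled out after their values were seen. At nhr-256 the region had 161 in each sample (rank 421 in replicate 3 and 547 in replicate 4), with summits at -96 and -79 bp. No region of the pooled list overlapped it. At nhr-97 the samples had 53.7 and 74.4, at -438 and -443 bp, again with no overlapping pooled region. Over the whole list, 2465 of the 3066 strongest regions of replicate 3 overlapped one of replicate 4, and 35 of these overlapped no pooled region. Why the pooled list lacks them was not tested.

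Summits of receptor genes lay mostly upstream, at a larger median distance than promoter peaks in general, though the distances were not measured alike. Of the 33, 29 (87.9%) lay upstream of the start and 20 within 500 bp upstream, with a median of -345 bp from the receptor gene's own start. For all 1675 promoter peaks the median was -219 bp from the nearest start among all genes whose window held the peak. Of these peaks 92.3% lay upstream. By annotation, 22 summits were intergenic, 6 intronic, 3 in a 5′ UTR and 2 in coding sequence. The 6 in introns belonged to nhr-40, nhr-49, nhr-34, nhr-31 and nhr-41, all of them with more than 1 annotated start. The 4 downstream of a start were at nhr-34, nhr-41, nhr-131 and nhr-273, and none of them exceeded a signal of 172. Sharing with a neighbour was less frequent than at promoters in general: 5 of the 33 peaks (15.2%) lay in the window of another protein-coding gene, against 27.5% of promoter peaks. These differences in position and sharing were not tested. For 31 of the 33, the start nearest to the summit was that of the receptor gene.

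**Figure D3:**
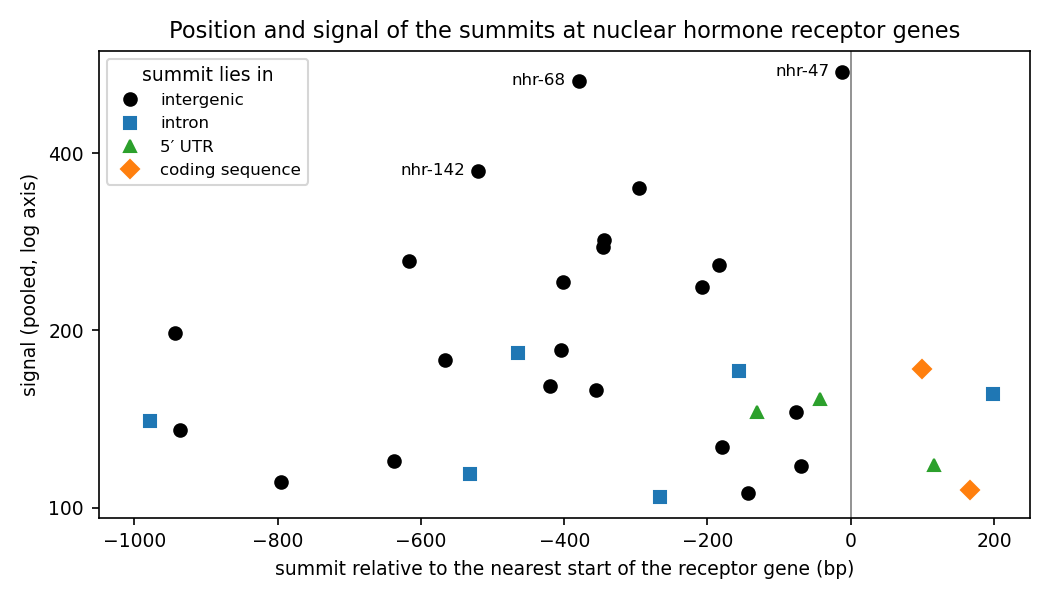
Pooled signal (y axis, log scale) against the distance of the summit from the nearest start of the receptor gene (x axis, bp, negative upstream) for the 33 IDR peaks, with symbols for what the annotation places at the summit. The 4 summits downstream of a start had signals of at most 172, and the 3 strongest peaks, at nhr-47, nhr-68 and nhr-142, were intergenic.

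The receptor genes with a summit had more sequence upstream of them than those without. The gap from the outermost start to the next protein-coding gene upstream had a median of 3526 bp for the 27 with an IDR summit and 1560 bp for the 247 without. For other protein-coding genes the order was the opposite, 647 bp with and 969 bp without. More than 1 transcript start was annotated for 51.9% of the 27 and 36.4% of the 247, and for 44.1% and 25.4% of other genes with and without a summit. More starts widen the searched window, and the share with a summit was 13.5% of the 104 receptor genes with several starts and 7.65% of the 170 with 1. Among other protein-coding genes these shares were 16% and 7.62%.

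Receptor genes were unevenly placed, and so were their summits. Chromosome V holds 167 of the 274, of which 8 had an IDR summit (4.79%, exact 95% interval 2.09 to 9.22%, beside 6.69% of all protein-coding genes of V). X holds 27, of which 8 had one (29.6%, 13.8 to 50.2%, beside 11.5%). On IV, 7 of 33 had one (21.2%, 8.98 to 38.9%, beside 9.48%). The counts were 2 of 24 on I (background 12.3%), 2 of 15 on II (8.44%) and 0 of 8 on III (14.2%), where a count of 0 allows a share of up to 36.9% by the exact interval. The difference in share between X and V was thus larger among receptor genes than among all genes of these chromosomes; it was noticed in the data and was not tested. The 8 genes on X were nhr-1, nhr-35, nhr-48, nhr-40, nhr-255, nhr-17, nhr-32 and nhr-3, with signals of 135 to 349.6 at the strongest summit.

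**Figure D4:**
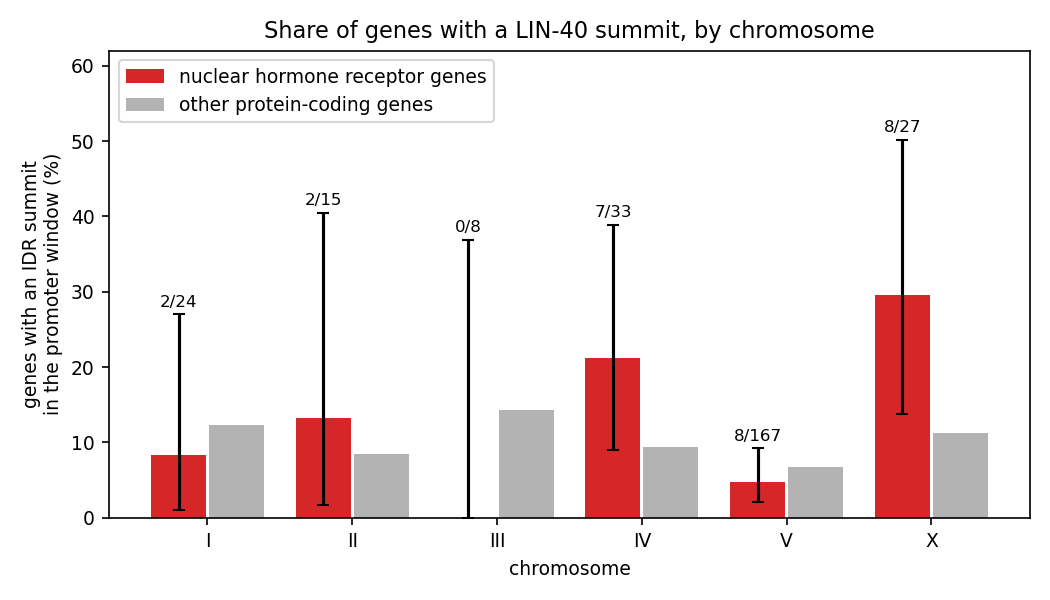
Share of genes (y axis, percent) with an IDR summit in the promoter window on each chromosome (x axis) for nuclear hormone receptor genes, with exact 95% intervals as bars and counts above them, and for other protein-coding genes. Receptor genes of X stood at 29.6% and those of V at 4.79%, against 11.3% and 6.75% of the other genes there.

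On the autosomes the arms held 151 receptor genes, of which 7 had a summit (4.64%, beside 8.29% of all protein-coding genes there). The centres, the middle 50% of each chromosome, held 96, of which 12 had one (12.5%, beside 10.7%). Of the receptor genes on the arms of V, the largest block of the family, 4 had a summit, and other protein-coding genes of these arms stood at 3.94%. If each receptor gene had the share of the other protein-coding genes of its chromosome, 22.8 would have a summit, and by chromosome and arm or centre 21, beside the 27 found.

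Below the IDR threshold, many receptor genes had a weaker region. Of the 247 without an IDR summit, 67 (27.1%, exact 95% interval 21.7 to 33.1%) had a summit of the 30000-region pooled list, which includes background regions, beside 23.3% of all protein-coding genes without an IDR summit. The strongest of these had a median of 42.2 at receptor genes and 36.9 at other genes. Just inside the threshold of 99.97 stood the third summits of nhr-40 (104) and nhr-49 (106) and the summits of nhr-273 (107) and nhr-69 (110.4). Just outside stood nhr-88 (96.6; 61.5 in replicate 3 and 37.5 in replicate 4), nhr-85 and nhr-62, described above, nhr-56 (91.2; 33.9 and 57.3) and nhr-46 (91.1; 45.3 and 48.1). They were followed by nhr-42 (82.2), nhr-228 (80.3), nhr-64, nhr-202 (76) and nhr-114. All 10 had the highest −log10 q-value the pooled list gives, 4.13, so that measure did not separate them from the genes inside. Of V's receptor genes 43 of 167 (25.7%) had a pooled region of any strength, beside 20.7% of all its protein-coding genes, and on X 16 of 27 (59.3%), beside 36.1%.

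**Figure D5:**
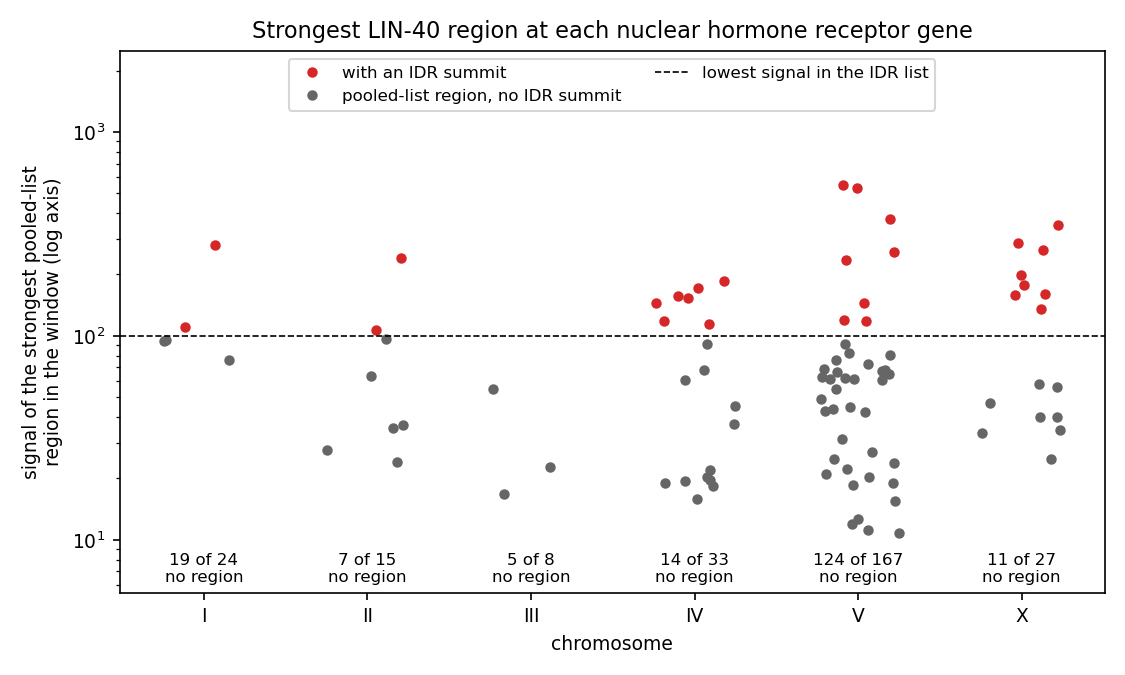
Signal (y axis, log scale) of the strongest pooled-list region in the promoter window of each nuclear hormone receptor gene, by chromosome (x axis); genes with no region are counted at the bottom and points are spread sideways for legibility. The dashed line marks the lowest signal of the IDR list, 99.97; 27 genes lie above it and 67 below.

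Several receptor genes had LIN-40 peaks inside the gene, outside the window. This search ran from 1000 bp upstream of the outermost start to the end of the gene and was added after the data were seen. Such a summit was found at 12 receptor genes (4.38%, beside 2.5% of all protein-coding genes), and 6 of the 12 had none in the window. The span searched grows with gene length, so these shares are not a like comparison. Median gene length was 4224 bp for receptor genes with an IDR summit in the window and 2248 bp for those without. For other protein-coding genes it was 2619 and 1972 bp. All but 1 of the 15 summits lay in introns. The strongest was in nhr-19, with a signal of 485 (226 in replicate 3, 260.0 in replicate 4; II 9603332 to 9603835) 1897 bp into the gene. It exceeded all but 2 of the peaks in receptor windows. An intron of nhr-3 held 444 (204 and 244) at 1911 bp, and nhr-17 held 317 (159 and 163) at 2545 bp. In daf-12, which had no IDR summit in its windows, summits of 284 (157 and 132; X 10637339 to 10637885) and 196 (87.5 and 110.4) lay 1775 and 3707 bp inside. Second summits lay in nhr-19, with 182 at 4237 bp, and in nhr-3, with 179 at 2111 bp. The others were in nhr-46 (238.5), nhr-14 (226), nhr-34 (211), nhr-48 (204), nhr-31 (199), nhr-27 (158, in the window of cept-1) and nhr-40 (103). The 1 outside introns, in the coding sequence of nhr-76, had 107 (44.4 and 59.3).

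Of 15 genes known to work with these receptors, 6 had an IDR summit, beside 9.91% of all protein-coding genes; this list too was chosen with earlier results known. Among 5 coregulator genes, 4 had one (80%, exact 95% interval 28.4 to 99.5%). They were cbp-1, the CBP/p300 acetyltransferase (924 at -890 bp; 445 in replicate 3 and 483 in replicate 4), din-1, the corepressor of DAF-12 (349 at -756 bp, the strongest of 3; 163 and 181), and ubc-9 (182 at -231 bp; 63.8 and 124) and smo-1 (153 at -530 bp; 72.5 and 81.4), of the SUMO pathway that modifies NHR-25. The cbp-1 peak exceeded every receptor peak. The Mediator subunit gene mdt-15, a coactivator of NHR-49, had a pooled region of 45.9 (16.3 and 24.8). None of the 4 genes of dafachronic acid synthesis, which makes the DAF-12 ligand (daf-9, daf-36, hsd-1 and dhs-16), had a region in the pooled list; the count of 0 allows a share with an IDR summit of up to 60.2% by the exact interval. Of 6 genes downstream of NHR-49 or DAF-12, 2 had an IDR summit (33.3%, 4.33 to 77.7%). The acyl-CoA synthetase gene acs-2 had 207 at -706 bp (80.8 and 125) and the heterochronic gene lin-28 had 253 at -535 bp (106 and 147). The desaturase gene fat-6 had a pooled region of 74.1 (56.3 and 24.1) and hbl-1 one of 48.1 (12.3 and 33.7), while fat-5 and fat-7 had none.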

How the data were processed

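The starting points were peak lists deposited by the authors on build ce11: 1 per sample, 1 called on both samples pooled and the IDR list, which holds the regions of the pooled list that passed a threshold. Per the deposited file listings a control alignment was used; no source used here names the caller, the aligner or the threshold. Per region the authors deposited a signal value and a −log10 q-value. From the ce10 lists only the number of IDR peaks (4635) was used. WBcel235 is the same assembly as ce11, and all regions lay within its chromosome lengths; genes came from Ensembl release 115.

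Summits were assigned to promoter windows, and the strongest region of a sample that overlapped a peak gave its sample value. The assignment was tested on simulated data with known answers. No test across genes was run: 2 samples of 1 group allow none between conditions, and the members and lists were chosen with earlier results of these data known. Shares have exact (Clopper-Pearson) 95% intervals from SciPy 1.17.1. The rule names every member with an IDR summit, the 10 strongest in full, every member of the function lists, the 10 strongest members below the threshold and partner genes with a summit. Protein sequences were not used here. Alternatives were stricter and looser thresholds, single samples, other windows, starts and placements, and other motif flanks. Python 3.11.15, NumPy 2.4.6, pandas 2.3.3 and Matplotlib 3.10.9 were used.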

Additional observations from a re-analysis of the deposited data

How the results depend on the processing

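With the stronger 50% of the IDR peaks, 14 receptor genes had a summit (5.11%, beside 5.81% of all protein-coding genes), 1 of them among the 15 with relatives outside nematodes and 13 among the others, and the median signal was 249.9; fewer peaks enter this list by construction. With as many pooled regions as the ce10 IDR list holds (4635) the count was 37 (13.5%, beside 13.4%). The nearest start alone gave 26 (9.49%, beside 7.61%), and the window of 2000 and 200 bp 35 (12.8%, beside 12.9%). Both the list of 4635 regions and the window of 2000 and 200 bp held 3 of the 15. The 8 genes gained with that window were nhr-5, nhr-8, nhr-10, nhr-14, nhr-21, nhr-70, nhr-76 and nhr-86. The window of 500 and 100 bp gave 18 (6.57%, beside 7.81%) and the outermost start alone 23 (8.39%, beside 9.12%), each with 1 of the 15. The list of a single sample gave 25 to 28 genes and median signals of 81.4 to 94.0, on that sample's own scale. With the sample region nearest to each summit, chosen after seeing the data, the median log2 ratio of replicate 4 to replicate 3 was 0.13 in place of 0.31. With 50 and 200 bp flanks, GAGAGA was found at 17 (51.5%) and 27 (81.8%) of the 33 peaks, against 24.1% and 49.4% of promoter peaks. CACGTG was found at 4 with 50 bp flanks (12.1%, against 5.73%) and TGATAA at 14 with 200 bp flanks (42.4%, against 33.3%). AGGTCA was found at 1 with 50 bp flanks (3.03%, against 2.75%), the same peak as with 100 bp flanks (3.03%, against 5.49%). With 200 bp flanks it was found at 5 (15.2%, against 9.55%). These counts are too small to set an order. Read depth is unknown, so weak regions and absent ones cannot be separated by depth.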

Other observations

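The words GCGCCAGC and ACGCGTCA, picked by eye in the summit sequences of nhr-47 and nhr-142, were found within 100 bp of the summit at no other receptor peak. GCGCCAGC was found at 77 of 1675 promoter peaks (4.6%) and 86 of 3066 IDR peaks (2.8%), and in the 1201 bp windows of 5 of 274 receptor genes (1.82%) and 1.55% of all protein-coding genes. The promoter peaks that hold it had a median signal of 316, against 172 for all promoter peaks. ACGCGTCA was found at 33 promoter peaks (1.97%), with a median signal of 244, and in 1.46% of receptor and 1.17% of all windows. These counts describe words chosen after the data were seen and were not tested.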
